A study of Mus musculus with 45 samples.

Results

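Transcript levels of 9 genes of the Fc gamma receptor (FcγR) system were followed in 45 mouse RNA sequencing libraries of 7 groups. The 3 count tables list 55450, 47643 and 43411 genes for slice microglia, adult microglia and brain tissue. The 9 genes were taken by name, with earlier results of these data known, and all 9 were present in each table. They comprise the activating receptors Fcgr1, Fcgr3 and Fcgr4, the inhibitory receptor Fcgr2b, the shared signalling chain Fcer1g, the kinases Lyn and Syk, the phosphatase gene Inpp5d and the neonatal Fc receptor gene Fcgrt. Slice microglia were sorted from organotypic coronal brain slices, that is, living slices of brain from wild-type C57BL/6 pups of postnatal day 1 to 4 grown on a membrane for 2 weeks in a serum-containing medium. For 24 h these slices stayed in medium alone (9 samples) or had a cytokine added, either TNF (tumor necrosis factor) at 50 ng/mL in 11 samples or GM-CSF (granulocyte-macrophage colony-stimulating factor) at 20 ng/mL in 9 samples, and each sample pooled several slices. Adult microglia came from female C57BL/6 mice of 10 to 15 weeks, 24 h after an intraperitoneal injection of 1 mg/kg lipopolysaccharide (LPS, a bacterial cell wall component, 4 samples) or of phosphate-buffered saline (PBS, 4 samples). Whole brain tissue came from C57BL/6 mice, also of 10 to 15 weeks, taken 24 h after that LPS dose (4 samples) or without treatment (4 samples). The brain tissue controls, unlike the microglia controls, had thus not been injected. The study names female mice for its in vivo LPS experiments, brain tissue included, and does not give the sex of untreated mice separately. Both kinds of microglia were sorted as live CD11b-high, CD45-intermediate cells after incubation on ice with an antibody that blocks Fc receptors. No group carried a transgene. The study describes its in vivo LPS samples as coming from independent mice, and its slice samples as pools of separately treated slices gathered over several experiments. The labels do not tie samples to animals or experiments, so the p-values measure the spread between samples as labelled.

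FcγRs bind the constant part of immunoglobulin G (IgG) and let microglia, the resident macrophages of the brain, take up or respond to antibody-coated particles. The activating receptors have no signalling motif of their own in mouse and depend on the FcRγ chain encoded by Fcer1g, whose ITAM motif is phosphorylated by Src family kinases such as Lyn and then recruits the kinase Syk. Fcgr2b carries an inhibitory ITIM motif instead, which recruits SHIP1, the lipid phosphatase encoded by Inpp5d, so the balance of activating to inhibitory receptors sets the threshold of the response. Fcgr1 encodes the high-affinity receptor (CD64), whereas Fcgr3 (CD16) and Fcgr4 bind IgG in immune complexes. Fcgrt, which pairs with beta-2 microglobulin, works inside cells, where it rescues IgG and albumin from degradation, and is not an FcγR in the signalling sense.

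In the GENCODE M21 annotation of GRCm38, 5 of the genes lie on chromosome 1. These are Fcgr2b (chr1:170958617-170976547, minus strand), Fcgr4 (chr1:171018920-171029761, plus strand), Fcgr3 (chr1:171051174-171064935, minus strand), Fcer1g (chr1:171229572-171234365, minus strand) and, farther away, Inpp5d (chr1:87620312-87720507, plus strand). Fcgr1 lies at chr3:96282909-96293969 (minus strand), Lyn at chr4:3678115-3813122 (plus strand), Fcgrt at chr7:45092990-45103851 (minus strand) and Syk at chr13:52583173-52648792 (plus strand). The values of the files are given per gene and do not separate isoforms. For adult microglia and brain tissue they are estimated counts. How these treat reads shared between genes was not given in the sources used here.

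The activating Fcgr3 and the inhibitory Fcgr2b share an identical coding stretch of 129 bases, which bears on every ratio of these genes because a short read from inside it could belong to either. The stretch is shown within its transcripts with 25 further bases on each side, and the capitals mark the 3 bases at which the sequences differ:
Fcgr2b: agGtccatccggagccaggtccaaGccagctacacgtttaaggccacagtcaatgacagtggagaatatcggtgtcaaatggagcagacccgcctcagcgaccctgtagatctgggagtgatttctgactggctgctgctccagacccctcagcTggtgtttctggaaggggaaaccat
Fcgr3: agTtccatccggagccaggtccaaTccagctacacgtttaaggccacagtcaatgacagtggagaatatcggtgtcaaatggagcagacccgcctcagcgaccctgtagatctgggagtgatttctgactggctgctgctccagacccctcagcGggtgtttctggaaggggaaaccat
Of all 50-base stretches of the Fcgr3 exons, 9.58% also occur in Fcgr2b, and of the 75-base stretches 5.42% do. From the side of Fcgr2b the shares are 2.92% and 1.63%. With any other annotated gene, Fcgr2b shares 6.95% and 5.43% of its stretches of these lengths. Fcgr1, Fcgr4, Fcer1g, Fcgrt and Syk share no stretch of these lengths with another annotated gene. Lyn shares 13.4% of its 50-base stretches with the pseudogene Gm11787, and 6.09% of its exon bases overlap the opposite-strand gene Gm26857. Fcgr2b overlaps the antisense gene Gm38204 over 2.68% of its exon bases, and with strand use in counting not given in the sources used here, such reads cannot be told apart.

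The 160 bases upstream of the RefSeq start (GRCm38.p6) of the activating receptor genes are printed here. These genes changed with the treatments below. So did other genes followed here, among them Fcgr2b, Inpp5d and Fcgrt, whose upstream bases are not printed. Capitals mark matches, on either strand, to GAGGAA (the core bound by PU.1, a myeloid factor), TTCNNNGAA (the GAS element of STAT factors), GAAA followed after any 2 bases by GAAA (the core of the interferon-stimulated response element) and GGG followed after any 3 bases by TTCC (an NF-kB type site):
Fcgr1, chr3:96293970-96294129, minus strand: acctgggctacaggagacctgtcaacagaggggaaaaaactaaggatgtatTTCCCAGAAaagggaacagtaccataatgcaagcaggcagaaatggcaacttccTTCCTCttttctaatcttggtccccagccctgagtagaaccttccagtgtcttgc
Fcgr4, chr1:171018766-171018925, plus strand: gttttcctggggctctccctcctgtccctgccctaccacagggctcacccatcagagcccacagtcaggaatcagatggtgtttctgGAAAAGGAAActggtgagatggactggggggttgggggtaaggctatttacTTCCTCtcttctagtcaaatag
Fcgr3, chr1:171059404-171059563, minus strand: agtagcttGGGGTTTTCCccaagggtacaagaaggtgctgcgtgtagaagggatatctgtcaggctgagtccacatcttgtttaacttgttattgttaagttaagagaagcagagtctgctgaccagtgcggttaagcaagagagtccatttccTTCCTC
The GAS letters stand 109 to 101 bases upstream in Fcgr1, the interferon-response letters 73 to 64 bases upstream in Fcgr4 and the NF-kB type letters 152 to 143 bases upstream in Fcgr3. PU.1 core letters were present in all 3. Among 32851 RefSeq promoter windows of 300 bases, 28.3% hold the PU.1 core, 8.3% the GAS letters, 3.44% the interferon-response letters and 5.56% the NF-kB type letters. For Fcgr3, the RefSeq start lies 5532 bases inside the GENCODE gene. PU.1 core letters were not particular to these receptors: the Inpp5d window and 1 of 2 Syk windows also held them, without the other motifs. The windows of Fcgr2b, Fcer1g and Fcgrt held none of the 4 motifs. A match is a description of letters and no evidence of binding.

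Libraries held 5973364 to 9165485 counts for slice microglia, 11391564 to 14216005 for adult microglia and 8199863 to 10368578 for brain tissue. Marker sums, in CPM (counts scaled to 1000000 per library), placed the libraries as labelled: the 11 microglia markers had sums between 12779 and 34218 in slice microglia, between 44114 and 68612 in adult microglia and between 306 and 500 in brain tissue, where the 5 neuron markers summed to 4527 to 5020. In the sorted microglia the neuron markers stayed between 0.771 and 10.1, the astrocyte markers between 1.51 and 82.2 and the oligodendrocyte markers between 109 and 300. Sums of the B cell list in sorted cells (8.37 to 46.9) came almost entirely from Cd79b, with Pax5 at 0. NK cell (up to 1.79) and mast cell (up to 10.0) markers, which mark other cells that carry these receptors, were near 0, and so were monocyte markers in slice microglia (up to 10.8). The border macrophage markers, by contrast, summed to 371 to 1416 in slice microglia and to 12.6 to 144 in adult microglia. In slice medium this sum came mostly from F13a1 (mean 303 CPM) and Ms4a7 (254 CPM), with Mrc1 at 96.4, Cd163 at 3.98 and Lyve1 at 3.09 CPM.

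Per kilobase of exon, the scale on which levels of different genes can be set side by side, Fcer1g was the most abundant of the 9 in slice microglia in medium, at 2357 ± 306 CPM per kb (SD, n = 9). Fcgr3 followed at 935 ± 42.3, Fcgrt at 200 ± 17.8, Lyn at 138 ± 13.9, Fcgr2b at 85.6 ± 6.71, Fcgr1 at 82.0 ± 12.8, Inpp5d at 62.4 ± 7.30, Fcgr4 at 62.3 (49.5 to 84.6) and Syk at 6.66 ± 1.67. The ranges of Fcgr2b and Fcgr1, of Fcgr1 and Inpp5d and of Inpp5d and Fcgr4 overlapped, and those of the other neighbours in this order did not. Fcgr3 was thus the leading receptor, and its level was over that of Fcgr2b by 10.9-fold on average. That fold and the order of close neighbours depend on the gene length used, here the union of all exons. The longest coding transcript is shorter, at 3544 against 5790 bases for Fcgr2b, 1347 against 1736 for Fcgr3 and 4937 against 7602 for Inpp5d.

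In adult microglia after PBS, Fcgr3 (954 ± 21.2 CPM per kb, n = 4) and Fcer1g (920 ± 25.5) led with overlapping ranges. Lyn (245 ± 9.85), Inpp5d (153 ± 4.57) and Fcgr1 (110 ± 3.97) came next, each below the one before without overlap. Fcgrt (61.1 ± 0.673) and Fcgr2b (61.1 ± 1.16) overlapped, and Syk (24.0 ± 0.974) and Fcgr4 (11.4 ± 1.07) were lowest. The tables were normalized separately, so these orders are given side by side with no test of a difference between slice and adult microglia. In untreated brain tissue the order was led by Fcgrt (8.42 ± 0.158 CPM per kb, n = 4), ahead of Fcer1g (5.35 ± 0.903) and Fcgr3 (3.67 ± 0.525), whose ranges overlapped each other. Fcgr4 was last there, at 0.0412 ± 0.0824, with counts of 0, 0, 2 and 0 in the 4 libraries.

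**Figure D1:**
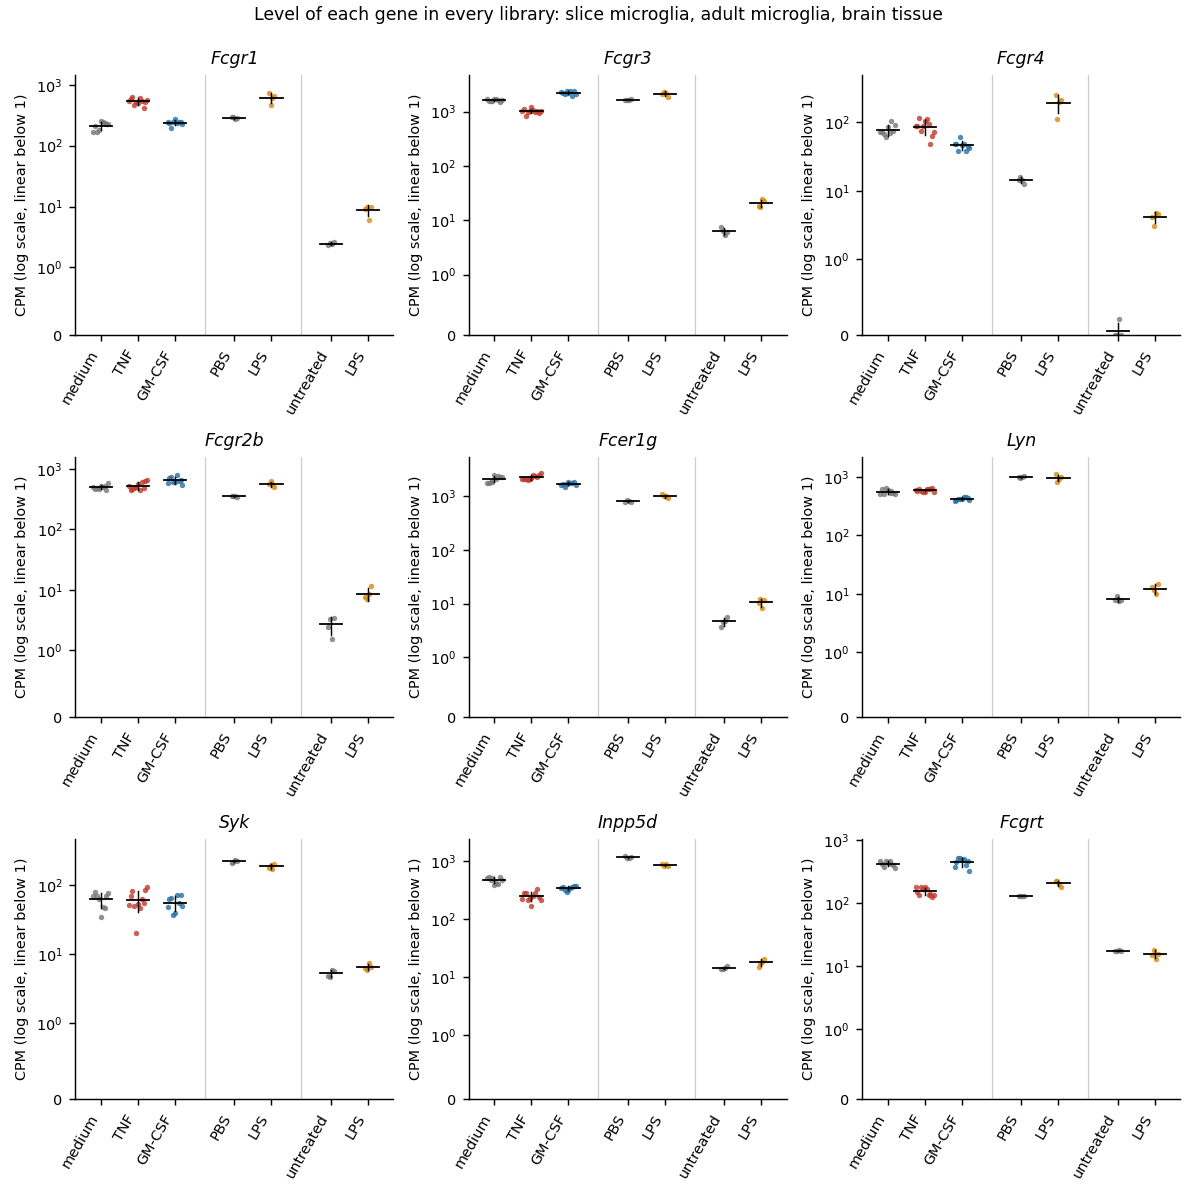
Level of each of the 9 genes in every library, in CPM on an axis that is logarithmic above 1 and linear below it; points are libraries, horizontal bars are group means and vertical bars ± 1 SD, and grey lines part the 3 separately normalized tables (slice microglia, adult microglia, brain tissue). Fcgr1 in TNF slices (417 to 638 CPM) stands clear of medium (165 to 258 CPM), and Fcgr4 in adult microglia after LPS (113 to 252 CPM) clear of PBS (12.5 to 15.8 CPM).

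TNF split the receptor system of slice microglia. The high-affinity receptor gene Fcgr1 rose 2.51-fold, while the most abundant receptor gene Fcgr3 fell, and so did Inpp5d and Fcgrt. With a call defined as an adjusted p under 0.05 and a fold change over 1.5, 4 of the 9 genes were called, 1 higher and 3 lower, against 20.8% of the 11313 genes tested (9.1% higher and 11.7% lower). The ranges of TNF and medium did not overlap for the same 4 genes, against 10.3% of all genes.

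Fcgr1 ran from 165 to 258 CPM in medium (median 224) and from 417 to 638 CPM with TNF (median 532). All 11 TNF samples lay above the highest medium sample, with a log2 fold change of 1.33 ± 0.08 (SE) and an adjusted p of 1.55e-15. Fcgr3 ran from 1492 to 1696 CPM in medium and from 826 to 1191 CPM with TNF, so that all 11 TNF samples lay below every medium sample. Its log2 fold change was -0.67 ± 0.05 (adjusted p = 5.67e-13). The remaining receptors did not pass the test. Fcgr4 (62.2 to 106 CPM in medium, 48.0 to 116 with TNF) differed by 0.15 (95% interval -0.09 to 0.38), and Fcgr2b (448 to 575 CPM, 440 to 648 with TNF) by 0.08 (-0.07 to 0.22).

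Of the signalling genes, Inpp5d, which encodes the phosphatase that acts below Fcgr2b, fell. It ran from 394 to 538 CPM in medium and from 171 to 328 CPM with TNF, and the groups did not overlap (log2 fold change -0.94 ± 0.08, adjusted p = 2.35e-11). The kinases and the shared chain stayed close to medium, with log2 differences of 0.11 (-0.02 to 0.24) for Fcer1g, 0.09 (-0.02 to 0.19) for Lyn and -0.03 (-0.39 to 0.32) for Syk. The interval of Syk is wide beside those of Fcer1g and Lyn, as its samples ran from 20.5 to 94.9 CPM with TNF.

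Fcgrt gave the largest change of the 9 under TNF. Medium samples ran from 364 to 469 CPM and TNF samples from 126 to 181 CPM (log2 fold change -1.45 ± 0.08, adjusted p = 1.8e-16), without overlap. B2m, the partner chain of Fcgrt, went from 3845 ± 361 to 5608 ± 638 CPM, a log2 change of 0.54 that did not reach the fold limit (adjusted p = 1.93e-08).

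The titles of the slice samples carry 1 of 4 codes (1A, 1B, 2A and 2B) that the labels do not define. Fitted with codes 1A and 1B alone, the TNF changes were 1.57 for Fcgr1, -0.63 for Fcgr3, -1.11 for Inpp5d and -1.36 for Fcgrt. With codes 2A and 2B alone they were 1.16, -0.71, -0.76 and -1.56, and all 4 genes were called in each set. Fcgr4 turned direction between the sets, at 0.44 (adjusted p = 0.0136, below the fold limit) and -0.13 (adjusted p = 0.685), and was called in neither. The summed microglia markers were lower with TNF (12779 to 16656 CPM) than in medium (23169 to 34218 CPM), and 8 of the 11 were called lower. Border macrophage markers summed to 586 to 1416 CPM with TNF and to 422 to 1150 CPM in medium. Their members did not move together: of 7 tested, Siglec1 was called higher, and 2, Mrc1 and Lyve1, were called lower. Neutrophil markers summed to 3.57 to 125 CPM with TNF (median 8.59) and to 0.834 to 15.8 CPM in medium (median 1.88), with Ly6g at 0 in every slice group. The part of these shifts in the changes above was not tested.

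GM-CSF lowered Fcgr4, the only gene of the 9 called in this comparison. Fcgr3, which had fallen with TNF, was 1.37-fold higher with GM-CSF, short of the fold limit. The 1 call stands against 10.8% of the 11313 genes called in either direction and 5.96% called lower, while 6 of the 9 genes had an adjusted p under 0.05 at any fold, against 25.6%. Fcgr4 fell by 0.76 ± 0.13 on the log2 scale (adjusted p = 2.14e-05), from 62.2 to 106 CPM in medium to 37.9 to 60.9 CPM, without overlap. Under title codes 1A and 1B alone the difference was -0.50 and no longer called, and under 2A and 2B it was -0.94. Inpp5d, by contrast, was called under 1A and 1B (-0.62) and not under 2A and 2B (-0.33).

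Differences below the fold limit were regular between samples for 3 further genes, and 4 of the 9 genes in all did not overlap with medium, against 5.6% of genes. Fcgr3 ran from 1978 to 2404 CPM, above every medium sample (0.46 ± 0.06, adjusted p = 6e-08). Lyn ran from 395 to 461 CPM against 505 to 661 CPM (-0.40 ± 0.06, adjusted p = 8.58e-07), and Inpp5d from 299 to 375 CPM (-0.47 ± 0.09, adjusted p = 0.000117), both below every medium sample. Fcgr2b differed by 0.39 (adjusted p = 0.000206), with 8 of 9 samples above the highest medium sample, and Fcer1g by -0.28 (adjusted p = 0.0021). The values of Fcgr1 (0.17, interval 0.01 to 0.34), Fcgrt (0.09, -0.08 to 0.25) and Syk (-0.15, -0.53 to 0.22) did not pass. Microglia markers summed to 17015 to 19648 CPM with GM-CSF, below medium, with 7 of 11 called lower, and the part of this in the differences was not tested.

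TNF and GM-CSF were compared with the same medium samples, so their changes share these controls and their difference was tested directly. Against GM-CSF, TNF samples were higher in Fcgr1 (log2 difference 1.16 ± 0.08, adjusted p = 6.63e-14) and Fcgr4 (0.91 ± 0.12, adjusted p = 2.9e-07). They were lower in Fcgr3 (-1.13 ± 0.05, adjusted p = 7.16e-19) and Fcgrt (-1.53 ± 0.08, adjusted p = 5e-17). These 4 of 9 were called, 2 in each direction, against 16.2% of the genes tested (8.25% higher and 7.96% lower). Fcgr3 was therefore 2.19-fold apart between the cytokines, with the lowest GM-CSF sample (1978 CPM) above the highest TNF sample (1191 CPM). Fcer1g (0.39) and Lyn (0.48) were higher with TNF in all 11 samples than in any GM-CSF sample, below the fold limit. Inpp5d (-0.47) and Fcgr2b (-0.31) were lower with an adjusted p under 0.05, and Syk did not differ detectably (0.12, interval -0.24 to 0.48). Within codes 1A and 1B the differences of Fcgr1, Fcgr3, Fcgr4 and Fcgrt were 1.23, -1.12, 0.94 and -1.48, and within 2A and 2B they were 1.08, -1.16, 0.82 and -1.64.

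In adult microglia, LPS raised 4 of the 9 genes, Fcgr4, Fcgr1, Fcgr2b and Fcgrt, against 27.4% of the 12987 genes tested and 14.4% called higher. No gene of the 9 was called lower. The rise of Fcgr4, a receptor at the bottom of the order after PBS, was the largest by far within the 9. Its values were 14.4, 15.8, 14.6 and 12.5 CPM after PBS and 252, 113, 197 and 216 CPM after LPS. The groups did not overlap, and the change was 13.6-fold (log2 3.76 ± 0.25, adjusted p = 7.85e-06). It brought Fcgr4 to 155 ± 46.8 CPM per kb, with a range that overlapped those of Fcgr1 and Inpp5d.

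Fcgr1 went from 293, 294, 273 and 279 CPM after PBS to 734, 460, 608 and 652 CPM after LPS (log2 fold change 1.11 ± 0.12, adjusted p = 2.05e-05). In Fcgr1 and Fcgr4 the LPS sample numbered 2 was the lowest of its group, and without it the changes were 1.23 and 3.95. This sample also weighed on the calls over all genes. There were 3563 with all samples, 4044 without it and 3373 to 3535 without any other single sample. Fcgr2b had 359, 360, 349 and 347 CPM after PBS and 552, 624, 566 and 493 CPM after LPS, a 1.58-fold rise (log2 0.66 ± 0.07, adjusted p = 2.29e-05). Here sample 2 was the highest. The inhibitory receptor thus rose together with 2 of the activating ones, none of the groups overlapping. Fcgr3 went from 1628 to 1706 CPM to 1835 to 2320 CPM, 0.36 ± 0.08 on the log2 scale with an adjusted p of 0.00206 but below the fold limit.

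The signalling genes moved less. Fcer1g differed by 0.31 ± 0.07 (adjusted p = 0.00176), with all 4 LPS samples above PBS, and Lyn by -0.04 ± 0.09 (interval -0.21 to 0.12), with overlapping groups. Inpp5d (1131 to 1205 CPM after PBS, 815 to 894 after LPS) and Syk (215 to 236 and 172 to 207 CPM) lay lower in all 4 LPS samples, by -0.44 (adjusted p = 0.000116) and -0.26 (adjusted p = 0.0123), neither past the fold limit. In all, 8 of the 9 genes did not overlap between LPS and PBS, against 47.5% of all genes. Fcgrt rose from 129, 128, 130 and 127 CPM to 223, 221, 197 and 178 CPM (log2 fold change 0.67 ± 0.08, adjusted p = 2.54e-05), whereas with TNF it had fallen in slice microglia. That contrast between the tables was not tested.

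Beside these changes, border macrophage markers summed to 41.4 to 144 CPM after LPS and 12.6 to 17.9 CPM after PBS, and all 4 of the 8 that could be tested were called higher. Siglec1 alone had 13.4 to 99.4 CPM after LPS and 1.94 to 2.96 after PBS, while Cd163 and Lyve1 stayed under 1 CPM. Neutrophil markers summed to 40.6 to 83.7 CPM after PBS and to 1.61 to 8.46 after LPS, and monocyte markers to 11.9 to 17.5 and 4.30 to 7.22 CPM. The summed microglia markers were 61903 to 68612 CPM after PBS and 44114 to 49864 CPM after LPS. Their part in the receptor changes was not tested.

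In brain tissue, LPS raised 6 of the 9 genes, all 4 FcγRs with Fcer1g and Lyn, against 3.18% of the 15083 genes tested and 2.63% called higher. The same 6 genes did not overlap between the groups, against 16.9% of genes. In bulk tissue, and in sorted cells, more cells of a type and more RNA per cell cannot be told apart. All levels were low, and the counts behind them are given for that reason. Fcgr3 had 76, 65, 53 and 58 counts in the untreated libraries and 175, 151, 201 and 204 after LPS, or 5.48 to 7.64 and 17.8 to 24.3 CPM (log2 fold change 1.71 ± 0.13, adjusted p = 7.25e-07). Fcgr1 went from 23 to 26 counts to 50 to 89 counts (1.82 ± 0.18, adjusted p = 1.22e-05), and Fcgr2b from 15 to 34 to 59 to 102 counts (1.67 ± 0.23, adjusted p = 0.000249).

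Fcgr4 was all but absent from untreated brain tissue. The 4 libraries held 0, 0, 2 and 0 counts, and after LPS 39, 26, 39 and 41 counts. With 145 counts against 2 in all, the ratio scaled to library size was 81.4, with an exact 95% interval of 22.1 to 679 that covers counting error only (adjusted p of the model 1.59e-06). After LPS its level of 3.28 ± 0.600 CPM per kb overlapped that of Fcgr1 (3.36 ± 0.705) and Lyn (3.03 ± 0.541).

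Fcer1g rose from 37, 47, 46 and 54 counts to 96, 103, 68 and 104 counts (log2 fold change 1.17 ± 0.16, adjusted p = 0.00022). Lyn rose by 0.62 ± 0.14 (adjusted p = 0.00859), from 7.45 to 9.14 CPM to 9.79 to 15.1 CPM, and its call was lost without LPS sample 4 (0.51) and without untreated sample 3 (0.58). Inpp5d (0.32, interval 0.12 to 0.52, adjusted p = 0.0658), Syk (0.31, 0.02 to 0.60, adjusted p = 0.226) and Fcgrt (-0.19, -0.38 to 0.01, adjusted p = 0.266) did not pass. Fcgrt, the most abundant of the 9 in untreated tissue, ran from 17.3 to 18.1 CPM there and from 12.9 to 18.3 CPM after LPS.

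Summed microglia markers in brain tissue overlapped between untreated (329 to 373 CPM) and LPS (306 to 500 CPM), with 1 of 11 called higher and 3 lower. Endothelial markers summed to 247 to 263 and 328 to 375 CPM, border macrophage markers to 7.24 to 11.4 and 17.4 to 24.5 CPM, and neutrophil markers to 0.503 to 1.55 and 3.16 to 8.09 CPM, each without overlap. Their part in the receptor changes was not tested.

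The LPS effects of adult microglia and brain tissue differed for most of the 9 genes. In a test of the difference itself, 7 of 9 were called, 6 with a signed log2 change that was lower in microglia and 1 with a higher one, against 19.7% of the 16676 genes tested (10.6% lower and 9.1% higher). At an adjusted p under 0.05 with any fold there were 8 of 9, against 30.8%. The difference of log2 fold changes, microglia minus brain tissue, was -1.35 ± 0.16 for Fcgr3 (adjusted p = 2.02e-06), -1.02 ± 0.23 for Fcgr2b (adjusted p = 0.00161), -0.87 ± 0.16 for Fcer1g (adjusted p = 0.000246), -0.77 ± 0.12 for Inpp5d (adjusted p = 3.55e-05), -0.73 ± 0.25 for Fcgr1 (adjusted p = 0.0337) and -0.67 ± 0.16 for Lyn (adjusted p = 0.00332). For Inpp5d the sign itself differed, at -0.44 in microglia and 0.32, which did not pass, in brain tissue. Fcgrt went the other way, at 0.85 ± 0.13 (adjusted p = 3.27e-05). Syk (-0.57, adjusted p = 0.00469) stayed below the fold limit, and Fcgr4 was not called (fitted difference -2.31 ± 1.25, adjusted p = 0.191). Its fitted values rest on 2 counts in untreated brain tissue, all in sample 3, and with 1 sample left out the difference ran from -4.79 to -1.95 and the fitted brain change from 5.65 to 8.26, each farthest out without that sample. The call of Fcgr1 was lost without LPS microglia sample 3 (-0.72), PBS sample 1 (-0.71), any of brain LPS samples 1, 2 and 4 (-0.71, -0.67 and -0.65) or any of the 4 untreated brain samples (-0.75 to -0.70), and that of Lyn without brain LPS sample 4 (-0.56). Fcgr4 was called without LPS microglia sample 2 (-2.13), and Syk (-0.63 to -0.59) without LPS microglia sample 2 or 4, PBS sample 1, brain LPS sample 1 or 2 or untreated brain sample 3 or 4. Tissue, library kit and the kind of control (PBS or none) coincide in this comparison and cannot be told apart.

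**Figure D2:**
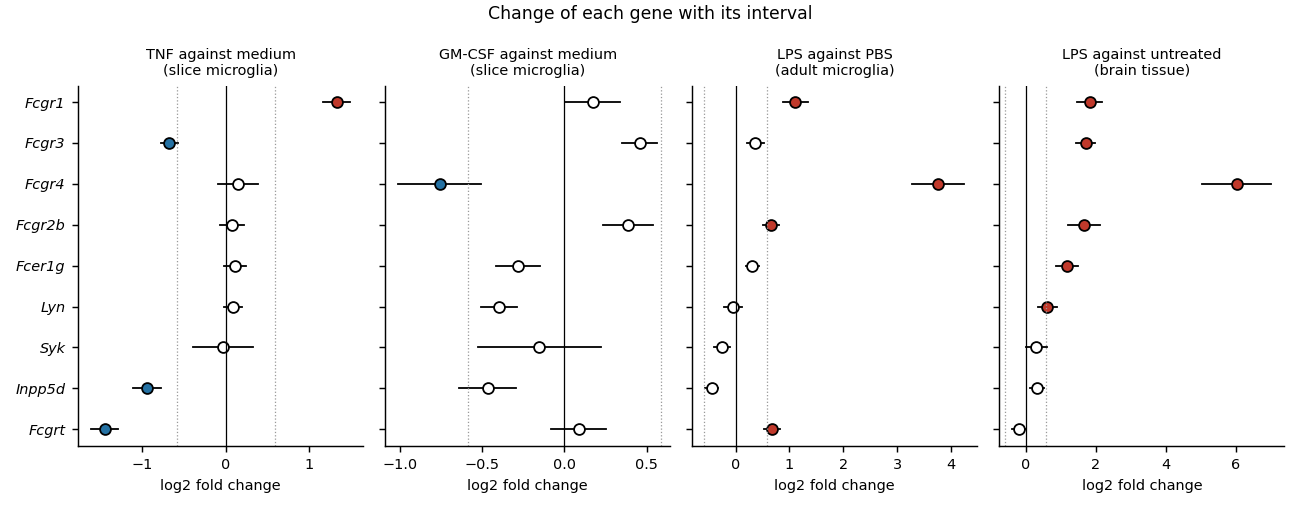
Log2 fold change of each gene in 4 comparisons, with lines for the 95% interval, filled points for called genes (red higher, blue lower) and open points for the rest; dotted lines mark a 1.5-fold change and the axes differ between panels. TNF shows Fcgr1 at 1.33 and Fcgrt at -1.45, and the Fcgr4 point of brain tissue is a fitted value that rests on 2 counts in the untreated libraries.

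The activating to inhibitory ratio was taken in each library as the sum of Fcgr1, Fcgr3 and Fcgr4 over Fcgr2b, each in CPM per kb. It is a description of transcripts with no p-value, and its level depends on the gene lengths used. Slice microglia in medium had a ratio of 12.6 ± 0.601 (range 11.2 to 13.1, n = 9). With TNF it was 9.71 ± 1.59 (7.29 to 12.3, n = 11), a log2 change of -0.40 against a pooled SD of 0.18, and 9 of 11 samples lay below the lowest medium sample. With GM-CSF it was 12.7 ± 1.58 (10.6 to 14.6), a log2 change of 0.0035 beside a pooled SD of 0.14. The TNF value was the sum of opposite movements. Fcgr1 over Fcgr2b went from 0.959 ± 0.145 to 2.32 ± 0.465, above medium in all 11 samples, and Fcgr3 over Fcgr2b from 10.9 ± 0.566 to 6.60 ± 1.10, below medium in all 11. Without Fcgr3 in the sum the TNF change turned to 0.86. Within title codes 1A and 1B it was -0.30, and within 2A and 2B -0.51.

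In GM-CSF samples the flat sum covered a fall of Fcgr4 over Fcgr2b from 0.726 ± 0.103 to 0.333 ± 0.0659, below medium in all 9 samples. The other single ratios overlapped medium, with Fcgr3 over Fcgr2b at 11.6 ± 1.40 and Fcgr1 over Fcgr2b at 0.836 ± 0.139.

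In adult microglia the ratio was 17.6 after PBS (range 17.1 to 18.4, n = 4) and 16.9 ± 1.36 after LPS (14.9 to 17.9, n = 4), a log2 change of -0.07 beside a pooled SD of 0.09. Again the parts moved apart. Fcgr4 over Fcgr2b went from 0.187 ± 0.0151 to 1.64 ± 0.580 and Fcgr3 over Fcgr2b from 15.6 ± 0.547 to 12.7 ± 0.399, each without overlap, and Fcgr1 over Fcgr2b from 1.80 ± 0.0346 to 2.50 ± 0.626 with overlap. Without Fcgr3 the change of the sum was 1.00 on the log2 scale. In brain tissue the ratio ran from 7.56 to 15.8 in untreated samples (median 10.4, SD 3.94, n = 4) and from 10.5 to 13.9 after LPS (median 13.6, SD 1.62, n = 4), groups that overlapped, and the low counts of Fcgr2b (15 to 34 per untreated library) limit it.

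**Figure D3:**
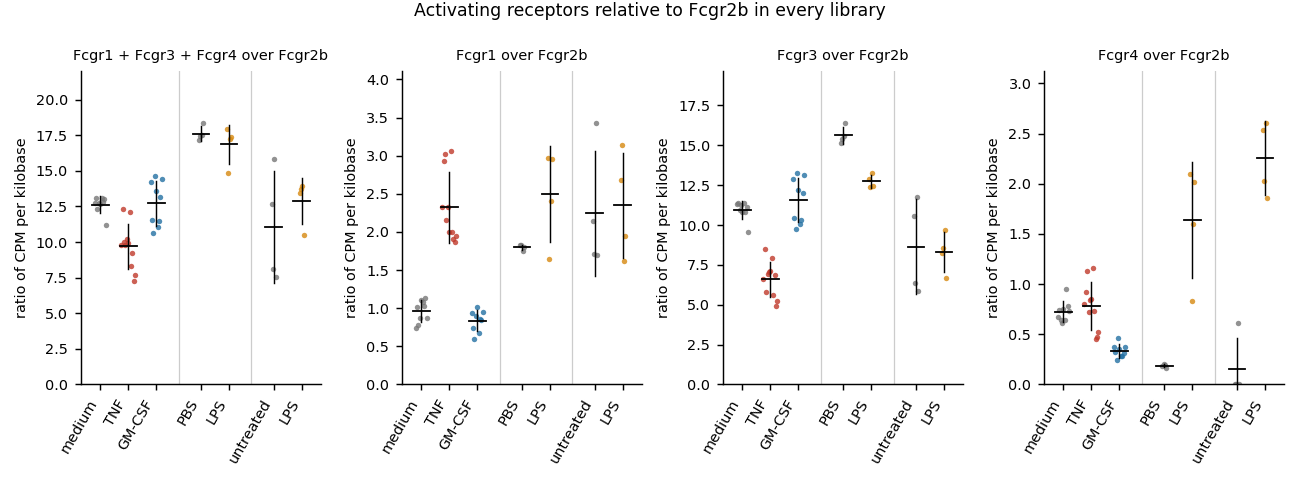
Ratio of the summed activating receptors, and of each alone, to Fcgr2b in every library, in CPM per kilobase of exon, with linear axes from 0; points are libraries, horizontal bars group means and vertical bars ± 1 SD. The sum is lower with TNF (7.29 to 12.3) than in most medium samples (11.2 to 13.1), while Fcgr1 over Fcgr2b is higher with TNF in all 11 samples.

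As a share of the 4 FcγR transcripts per kb, Fcgr3 was the majority in every group. It held 80.3% ± 1.53 in medium, 61.6% ± 3.69 with TNF and 84.2% ± 0.741 with GM-CSF, and 83.9% ± 0.581 after PBS against 71.5% ± 4.93 after LPS in adult microglia. The mean share of Fcgr1 was larger both with TNF and after LPS in adult microglia, and it stayed above that of Fcgr4 in both. With TNF, Fcgr1 went from 7.03% ± 0.956 to 21.7% ± 2.51 of the total, and Fcgr4 from 5.34% ± 0.779 to 7.22% ± 1.58 with overlap. After LPS in adult microglia, Fcgr4 went from 1.01% ± 0.102 to 9.03% ± 2.73 and Fcgr1 from 9.68% ± 0.364 to 13.8% ± 2.64. The share of Fcgr2b was 7.35% ± 0.351 in medium and 9.53% ± 1.43 with TNF, and 5.38% ± 0.149 after PBS and 5.62% ± 0.459 after LPS. In brain tissue Fcgr4 went from 0.913% ± 1.83 to 16.2% ± 1.74 of the 4.

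**Figure D4:**
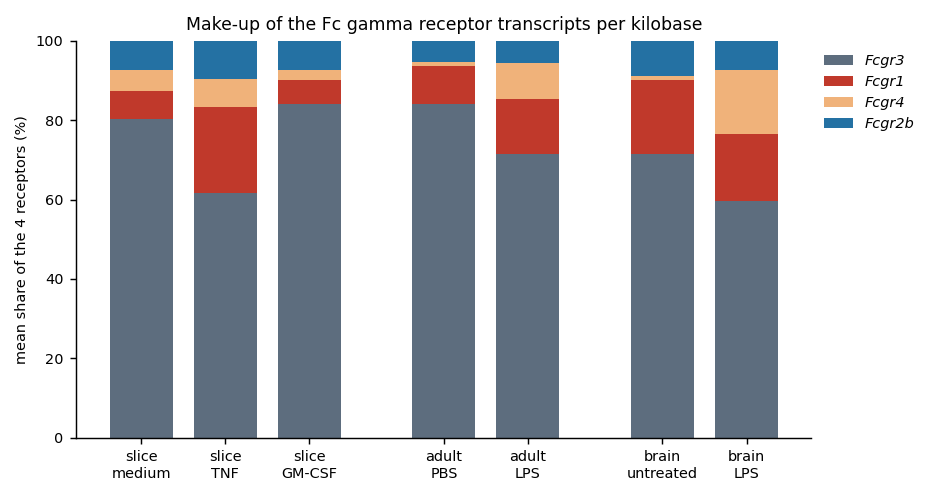
Mean share of each FcγR gene in the summed level of the 4 receptors, in percent of CPM per kilobase, for the 7 groups as stacked bars from 0 to 100. Fcgr3 holds most of every bar, from 59.5% in brain tissue after LPS to 84.2% in slice microglia with GM-CSF, and the Fcgr1 part is widest with TNF at 21.7%.

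Among other genes of the pathway, the Src family kinase Fgr, a relative of Lyn found in myeloid cells, rose with TNF and with LPS in adult microglia, where Lyn did not pass the test. Of 10 Src and Tec family kinase genes in a list, 9 were tested in slice microglia, and TNF raised 4 and lowered 1, where 9.1% of all genes were called higher and 11.7% lower. Fgr went from 26.3 ± 7.30 to 115 ± 14.5 CPM (log2 2.12, adjusted p = 4.74e-14) and Src from 2.91 ± 2.00 to 12.1 ± 4.65 CPM (2.05, adjusted p = 1.33e-05). GM-CSF raised Src alone of the 9, with 10.8% of all genes called. LPS in adult microglia raised Fgr, from 4.65 ± 0.765 to 64.8 ± 36.6 CPM, and lowered Fyn. The median log2 fold change of the list was -0.14 with TNF, 0.09 with GM-CSF, -0.43 and 0.02 with LPS in adult microglia and brain tissue, beside -0.03, -0.04, 0.01 and 0.00 over all genes.

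Of 12 restraining phosphatases and adaptors, all of which were tested in slice and adult microglia, TNF raised 1 and lowered 2, GM-CSF raised 1 and lowered 4, and LPS in adult microglia raised 3 and lowered 1. Over all genes 20.8%, 10.8% and 27.4% were called, so the TNF and LPS counts of this list are near the background. Dok2, an adaptor that restrains Ras signalling, rose with both cytokines (1.68 and 1.73 on the log2 scale), while the inhibitory receptor gene Sirpa fell with both (-0.63 and -0.72) and after LPS in adult microglia (-0.93). Lair1, a further inhibitory receptor gene, fell with GM-CSF from 732 ± 52.3 to 386 ± 21.7 CPM. In brain tissue 2 of 11 rose, where 2.63% of all genes were called higher. These were Ptpn6 (0.91), which encodes the phosphatase SHP-1, and Ptprc (0.89), which encodes CD45. The list medians were -0.10, -0.23, -0.29 and 0.17 in the order above.

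Among 22 genes of downstream activating signalling, 21 were tested in slice microglia, of which TNF raised 2 and lowered 4 and GM-CSF lowered 3, near the 20.8% and 10.8% called over all genes. Pik3ap1, an adaptor of phosphoinositide 3-kinase, was called in opposite directions, 0.60 with TNF and -0.64 with GM-CSF, and the direct difference was 1.24 (adjusted p = 7.93e-15). Lcp2, which encodes the adaptor SLP-76, rose with TNF (0.62), and Blnk, which encodes a related adaptor, fell with TNF (-0.59), GM-CSF (-0.97) and LPS in adult microglia (-1.31). LPS raised 3 and lowered 2 of 20 in adult microglia, near the 27.4% of all genes, and raised 6 of 21 in brain tissue, where 2.63% of all genes were called higher, led by Rac2 (1.31). The list medians were -0.07, -0.14, -0.07 and 0.29. Of 14 Fc receptor relatives, 5 were tested in the microglia tables and 4 in brain tissue. Called were 3 with TNF, 1 with GM-CSF, 2 with LPS in adult microglia and 2 in brain tissue, beside 20.8%, 10.8%, 27.4% and 3.18% of all genes. Fcrls, an Fc receptor-like gene of mouse microglia, fell with TNF (-1.31) and after LPS in adult microglia (-0.70), and Fcrl1 fell with TNF (-2.51), GM-CSF (-2.07) and LPS (-1.76). In brain tissue B2m (1.10) and Tyrobp (0.64), which encodes the ITAM adaptor DAP12, rose. The list medians were -0.33, -0.42, 0.02 and 0.66.

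Over the 9700 genes tested in all 3 tables, those whose changes under TNF, GM-CSF and LPS in both tissues lay closest to Fcgr1 were Cdkn1a, Rhbdf2 and Igtp, with root mean square differences of 0.22, 0.23 and 0.27 on the log2 scale over these 4 comparisons. Closest to Fcgr2b were Rac2 (0.24), Fam111a (0.30) and Runx1 (0.31), and to Fcgr3 Epha2 (0.28), Pkn3 (0.30) and Adora3 (0.36). The closest to Fcgr4 were farther off, with C3 at 1.49, C5ar1 at 1.58 and Cd244a at 1.62, and the brain value of Fcgr4 in this measure is a fitted one.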

How the data were processed

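RNA was sequenced from sorted slice microglia (75-base single-end reads), sorted adult microglia (50-base paired-end reads) and brain tissue (50-base single-end reads). For slice microglia the authors deposited raw counts per gene, from STAR 2.7.0a and featureCounts of Subread 1.6.4 on mm10. For adult microglia and brain tissue the authors deposited estimated counts that need not be whole (mm10), and these were rounded; for these tables an aligner and counter were not given in the sources used here. The 92 rows of the brain table that name no gene held 0 counts and were left out.

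Genes passed edgeR's filterByExpr (minimum count 10, minimum total 15), and each table was scaled by TMM and tested with edgeR 4.0.16 (quasi-likelihood test, R 4.3.3) on the study's groups, with Benjamini-Hochberg adjustment over all genes tested. Calls needed both an adjusted p under 0.05 and a fold over 1.5. The difference of the LPS effects came from an interaction term over the adult microglia and brain tables. CPM used the TMM library sizes, and levels per kb the exon union of GENCODE M21. The ratios are descriptive. The code was tested on simulated data. Alternatives used total counts, DESeq2 1.42.0 size factors and test, limma-voom (limma 3.58.1), other filters and fold limits, the replicate number as a block, title codes as covariate or subset, and samples left out in turn. Intervals of counts cover counting error only.

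All 9 genes are described by name. Other pathway genes are named where they had 1 of the 3 smallest p-values among the called genes of their list in a comparison, and for each receptor the 3 genes closest in pattern. B2m with TNF and Blnk with TNF fall outside this rule and were chosen after their values were seen. The members and lists were chosen with earlier results of these data known. Sequences come from GENCODE M21 transcripts and RefSeq promoter windows. Results for some genes of the lists are not reported here.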

Additional observations from a re-analysis of the deposited data

Results flagged for a closer look

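The LPS effects of adult microglia and brain tissue differed by the interaction term for 8 of the 9 genes at an adjusted p under 0.05, as microglia minus brain tissue on the log2 scale. The differences were -0.73 for Fcgr1, -1.02 for Fcgr2b, -1.35 for Fcgr3, -0.87 for Fcer1g, 0.85 for Fcgrt, -0.57 for Syk, -0.77 for Inpp5d and -0.67 for Lyn. Over all genes, 30.8% had such an adjusted p. The signed difference was below 0 for all of the 8 but Fcgrt. For Inpp5d and Syk no rise passed the test in brain tissue (0.32 and 0.31), and the values in microglia were -0.44 and -0.26. Tissue, library kit and control type cannot be told apart here.

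In 4 of 60 groups of values, a sample stood apart from the others of its group by Dixon's criterion, which chance meets in about 1 in 20 groups. The medium sample 9 had an activating to inhibitory ratio of 11.2, the lowest of its group. The GM-CSF sample 4 had the highest Fcgr4 level of its group, 60.9 CPM. Untreated brain sample 3 had the only Fcgr4 counts among the untreated samples, at 0.207 CPM. Brain LPS sample 4 had a ratio of 10.5, the lowest of its group.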

How the results depend on the processing

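Without a fold limit, the genes called of the 9 became 6 for GM-CSF, 8 for TNF against GM-CSF and 8 for LPS in adult microglia. The log2 change of the ratio with TNF was -0.68 without Fcgr1 and 0.86 without Fcgr3, with GM-CSF -0.54 without Fcgr3, with LPS in adult microglia 1.00 without Fcgr3 and -0.20 without Fcgr4, and in brain tissue 1.03 without Fcgr3. Per kb of the longest coding transcript, a choice made after seeing the data, these changes kept their direction. Leaving out 1 sample at a time gave 4 to 4 calls for LPS in adult microglia, 5 to 6 in brain tissue and 5 to 9 for the difference of LPS effects, and ratio changes of -0.10 to -0.01 and 0.12 to 0.48. For the difference of LPS effects, limma-voom lost Fcgr1 (adjusted p = 0.323) and Lyn (0.0565), the unfiltered fit lost Fcgr1 (0.0691), and DESeq2 gained Fcgr4 (0.0417) and Syk. Total counts gained Inpp5d for TNF against GM-CSF (-0.64). Directions of single genes turned only where the value had not passed: Fcgr4 with TNF (-0.13 under codes 2A and 2B), Syk with TNF (0.013 with the code as covariate, 0.31 under 2A and 2B), with GM-CSF (0.087 under 2A and 2B) and for TNF against GM-CSF (-0.057 with total counts, -0.083 with the replicate block), and Lyn after LPS in adult microglia (0.023 without LPS sample 2, and -0.12 to 0.023 over all samples left out). The causes were not tested. With total counts the GM-CSF calls over all genes went from 548 higher and 674 lower to 814 and 460, and the median of all genes from -0.04 to 0.07. Of the values of single genes under alternatives, 777 kept direction and call, 27 gained a call and 16 lost it. With the replicate number as a block the calls among the 9 were 4, 1, 4, 4, 6 and 7, as without it. The deviations of slice samples sharing a number had a mean r of 0.085 (-0.059 to 0.211 over 27 pairs), against -0.0083 for other pairs, and 9 of 29 correlated best with their own number, a hint of shared variation that did not reach every pair. In adult microglia (mean r -0.0083) and brain tissue (-0.0065) 1 of 8 and 2 of 8 did. Slice samples that share a number often share a title code too, so number and code cannot be told apart there. Fcgr4 had no estimate in brain tissue under the stricter count filter. Depth limits Fcgr4 and Fcgr2b in untreated brain tissue (0 to 2 and 15 to 34 counts).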
